A study of Mus musculus with 20 samples.

Results

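The 34 genes described here are markers of macrophages, monocytes and related myeloid cells, chosen by name from the 24062 genes of the count files. They fall into 7 roles: the lineage receptor Csf1r and the transcription factor gene Spi1, 9 pan-macrophage surface and lysosomal genes, the 3 complement C1q chains, 5 genes of Fc receptors and ITAM signalling, 3 integrin subunits, 3 monocyte and chemokine receptor genes, and 9 scavenger receptor, lectin and related genes of resident macrophages. All 34 were found, 33 under the same symbol and Adgre1, the F4/80 antigen, under its older symbol Emr1. No exon of these genes overlaps an exon of another gene in the counted annotation.

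PolyA RNA of 2 tissues was sequenced from male C57BL/6N mice on chow: the pituitary gland, and a subcutaneous fat pad of the groin, inguinal white adipose tissue (iWAT). Each tissue gave 5 libraries labelled wild type (WT) and 5 labelled KLF14 KO, for the zinc finger transcription factor gene Klf14. The mice labelled KO were 21 weeks old for replicates 31, 32, 35 and 66 and 19 weeks for replicate 50. Those labelled WT were 21 weeks old for replicates 33 and 34, 19 weeks for replicates 48 and 49, and 18 weeks for replicate 56. Replicates carry the numbers of the sample titles, which recur in both tissues. The series title calls the mutation a germline deletion, so all cells of a mouse labelled KO should carry it. No label states that each library of a group is from its own animal, and p-values here reflect library-to-library spread, part of which may be technical.

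Tissue macrophages depend on signalling through the CSF1 receptor and on the transcription factor PU.1, which Spi1 encodes. Resident macrophages clear dying cells and debris through scavenger receptors and lectins, make complement C1q, and sense immune complexes through Fc receptors that signal by ITAM adaptors. In fat they surround adipocytes and vessels and include cells that carry the mannose receptor, and in the pituitary macrophages lie among the endocrine cells of the anterior lobe while microglia-like cells occupy the posterior lobe.

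Levels are CPM, counts scaled to the TMM-adjusted library size, unless stated otherwise. Total counts were 13.6 to 17.6 M in the pituitary and 14.8 to 18.69 M in iWAT. Klf14 itself was higher, not lower, in the pituitary libraries labelled KO, at 32.4 ± 2.98 CPM (29.3 to 36.9) against 16.1 ± 1.78 CPM (13.4 to 18.2) in those labelled WT (SD, n = 5 each, log2 fold change 1.004, edgeR adjusted p = 7.64e-05). The iWAT levels of Klf14 were 0.915 ± 1.23 CPM (labelled WT) and 1.56 ± 0.81 CPM (labelled KO). No source used here gives the deleted stretch of Klf14, and all directions below are those of the labels. The growth hormone gene Gh marked the pituitary and the adiponectin gene Adipoq marked iWAT, and 1 iWAT library, KO replicate 32, held 94.3 CPM of Gh against at most 0.99 in the other 9.

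Several libraries stood apart from the rest of their tissue in the myeloid genes or in markers of other cells. Pituitary KO replicate 50 had the highest level of the 10 pituitary libraries for 26 of the 29 members with a mean of at least 1 CPM. Its summed level of 9 neutrophil genes was 449.8 CPM, against 1.44 to 34.1 CPM in the other pituitary libraries. In iWAT, KO replicate 50 was lowest for 13 of the 34 members and WT replicate 49 highest for 18. For how many of all genes these libraries were highest or lowest was not computed, so these counts have no background beside them. The summed level of 7 B cell genes was 11.4 CPM in iWAT KO replicate 50 and 226 CPM in WT replicate 49, against 449 to 1068 CPM in the other 8 iWAT libraries. Values without KO replicate 50 are given beside the medians and folds it moved most. Values without WT replicate 49 are given beside medians only, not beside the folds of single genes.

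**Figure D1:**
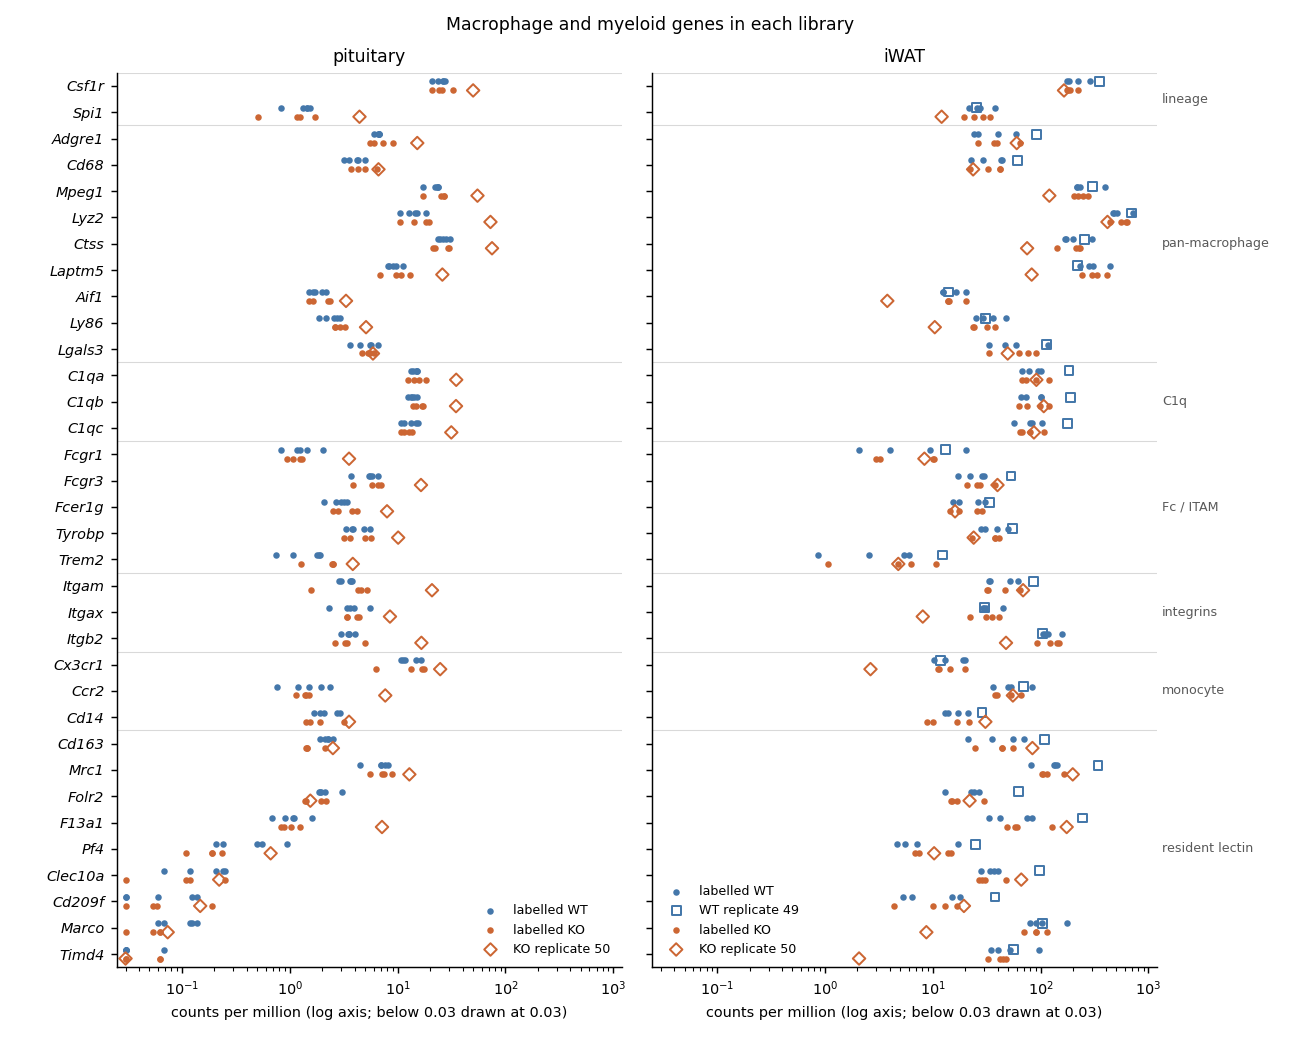
Level of each of the 34 genes in every library, in CPM on a log axis, in the pituitary (left) and iWAT (right). Each point is 1 library, blue for labelled WT and orange for labelled KO; diamonds mark KO replicate 50 and squares iWAT WT replicate 49, and roles are named at the right. The diamond lies to the right of the other pituitary points for 26 genes, and Cx3cr1 lies at about the same level in both tissues.

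The first comparison set iWAT against the pituitary within each labelled genotype. Of the 34 members, 33 were higher in iWAT in the labelled WT libraries (edgeR quasi-likelihood test, Benjamini-Hochberg adjusted p under 0.05) and 33 in the labelled KO libraries, with 0 lower in either. Among all genes tested, 38.9% were called higher in iWAT in labelled WT and 37.8% in labelled KO. In these 2 comparisons 79.1% and 75.1% of all genes were called in either direction, and 40.2% and 37.3% were called lower in iWAT. The members' median log2 fold change was 3.71 (13.04-fold) in labelled WT and 2.93 (7.65-fold) in labelled KO, where the median of all genes tested was -0.01 and 0.02. Without WT replicate 49 the labelled WT median was 3.41. Without KO replicate 50 the labelled KO median was 3.36, and the fold of 8 of the 34 members, Spi1, Lyz2, Ctss, Laptm5, Itgam, Itgb2, Ccr2 and F13a1, was over 1.5 times larger. The gene outside both counts was Cx3cr1. Over all 20 libraries the levels of the tissues overlapped for Ctss, Fcgr1, Itgax, Trem2 and Cx3cr1. In bulk tissue, fewer cells of a type and less RNA per cell cannot be told apart.

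The lineage genes separated the tissues fully. Csf1r, the receptor for CSF1 and IL-34, was at 20.8, 23.7, 26.3, 26.4 and 27.7 CPM in the labelled WT pituitary libraries and 20.9, 24.4, 25.9, 32.3 and 50.1 CPM in the labelled KO ones. The iWAT values were 177, 185, 222, 290.1 and 354 CPM in labelled WT and 165, 175, 180.1, 188 and 224 CPM in labelled KO. Every iWAT library was above every pituitary library, including KO replicate 50, which had the highest pituitary and the lowest iWAT value. The log2 fold change of Csf1r was 3.30 (SE 0.20, edgeR adjusted p = 4.47e-08) in labelled WT and 2.66 (SE 0.22, edgeR adjusted p = 1.30e-06) in labelled KO. Spi1 lay at 0.504 to 4.43 CPM in the pituitary and 12.1 to 38.1 CPM in iWAT, a 21.0-fold difference in labelled WT and 13.8-fold in labelled KO, where it was 23.2-fold without replicate 50.

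All 9 pan-macrophage genes were higher in iWAT in both labelled genotypes, with a median log2 fold change of 3.64 in labelled WT and 2.88 in labelled KO. The labelled KO median was 3.33 without replicate 50. Lyz2, which encodes the M lysozyme of macrophages and granulocytes, had the largest difference of the 9 in labelled WT. Its pituitary values were 10.6, 12.9, 14.4, 15.2 and 18.2 CPM in labelled WT and 10.5, 14.2, 18.1, 19.6 and 72.6 CPM in labelled KO. Its iWAT values were 473, 480.0, 515, 701 and 725 CPM in labelled WT and 417, 444, 562, 618 and 637 CPM in labelled KO. The tissues did not overlap, and the value of 72.6 CPM from KO replicate 50 stood far above the other 9 pituitary libraries. The log2 fold change of Lyz2 was 5.35 (SE 0.20) in labelled WT and 4.38 (SE 0.53) in labelled KO, where it was 5.21 without replicate 50.

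Laptm5, a lysosomal membrane protein of blood cells, followed with 31.9-fold in labelled WT and 21.5-fold in labelled KO, or 32.5-fold without KO replicate 50. Lgals3 (galectin-3), Ly86 (the MD-1 partner of the Toll-like receptor relative CD180) and Mpeg1 (the pore-forming protein perforin-2) had log2 fold changes of 3.84, 3.79 and 3.64 in labelled WT. Cd68, a lysosomal glycoprotein, was at 4.03 ± 0.700 CPM in labelled WT pituitary and 40.0 ± 14.9 CPM in labelled WT iWAT (SD, n = 5 each). Aif1, which encodes the actin-binding protein Iba1, Ctss, the lysosomal protease cathepsin S, and Adgre1 had the 3 smallest differences of the group in labelled WT, with log2 fold changes of 3.06, 3.04 and 2.89. In labelled KO Ctss had 2.37, and 3.01 without replicate 50.

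Per length of counted exon, Ctss, Lyz2 and the C1q chains were among the 6 highest of the 34 in both tissues in labelled WT. In labelled WT pituitary Ctss led with 19.7 ± 2.07 CPM per kb, followed by Lyz2 with 13.5 ± 2.67 and the C1q chains with 13.4 ± 0.754 (C1qa), 12.997 ± 0.955 (C1qb) and 12.5 ± 1.92 (C1qc) CPM per kb (SD, n = 5). Lyz2 and the 3 C1q chains overlapped within their SDs. In labelled WT iWAT Lyz2 led with 548 ± 117 CPM per kb, ahead of Ctss with 161 ± 42.4, Laptm5 with 123 ± 36.1 and C1qb with 99.8 ± 46.1. Ctss, Laptm5 and C1qb overlapped within their SDs. The lowest in labelled WT pituitary was Timd4 with 0.00631 ± 0.0141 CPM per kb, and the lowest in labelled WT iWAT was Fcgr1 with 3.78 ± 2.82 CPM per kb, close to Cx3cr1 with 3.93 ± 1.15.

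The 3 chains of C1q, the recognition unit of the classical complement pathway, are encoded side by side on mouse chromosome 4. Their levels stayed in a narrow ratio. Per kb, the C1qa to C1qb ratio was 0.888 to 1.096 over the 10 pituitary libraries and 0.838 to 1.05 over the 10 iWAT libraries, and the C1qc to C1qb ratio was 0.758 to 1.145 and 0.811 to 1.095. C1qb was at 12.6, 13.3, 13.6, 14.3 and 15.3 CPM in labelled WT and 13.9, 14.8, 16.8, 17.2 and 34.8 CPM in labelled KO pituitary. Its levels in iWAT were 65.5, 74.0, 101, 101 and 189 CPM in labelled WT and 62.6, 74.8, 98.9, 107 and 119 CPM in labelled KO. The tissues did not overlap for any chain, and the highest values, 34.8 CPM in pituitary KO replicate 50 and 189 CPM in iWAT WT replicate 49, stood apart from their groups. The C1qb log2 fold change was 2.94 (SE 0.27, edgeR adjusted p = 1.15e-06) in labelled WT and 2.31 (SE 0.28, edgeR adjusted p = 2.51e-05) in labelled KO, with C1qa at 2.86 and 2.27 and C1qc at 2.93 and 2.41.

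The 250 bases before the start of C1qb (chr4:136886201-136886450) and of C1qc (chr4:136892915-136893164) are shown because these neighbours stayed in a narrow ratio in all 20 libraries. Both lie on the minus strand of GRCm38.p6 and are given 5′ to 3′ on the gene's strand, as in RefSeq. Capitals mark GAGGAA, a core of the sites that PU.1 is known to bind, or its reverse complement TTCCTC.
C1qb: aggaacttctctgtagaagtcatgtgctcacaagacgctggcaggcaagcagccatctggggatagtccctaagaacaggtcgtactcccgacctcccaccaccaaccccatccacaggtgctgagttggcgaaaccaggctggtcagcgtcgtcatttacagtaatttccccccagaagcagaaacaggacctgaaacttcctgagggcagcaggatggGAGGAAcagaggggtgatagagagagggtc
C1qc: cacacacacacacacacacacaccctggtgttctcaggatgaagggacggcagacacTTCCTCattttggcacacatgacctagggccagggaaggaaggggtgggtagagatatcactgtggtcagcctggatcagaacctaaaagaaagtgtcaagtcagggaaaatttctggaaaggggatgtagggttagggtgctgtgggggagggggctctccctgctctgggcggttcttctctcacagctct
Each window held 1 match to GAGGAA on either strand. Adgre1, Csf1r, C1qa, Tyrobp, Itgb2, Cd14, Clec10a and Spi1 had no window in the table used. Over the members with a RefSeq window, 26 of 34, GAGGAA on either strand occurred in 14 (53.8%), against 25.9% of 27025 genes with windows of the same length. The longer GAGGAAGT, which contains the shorter motif, occurred in 2 of 26 (C1qc and Pf4), or 7.69% against 2.79% of all genes. Also scanned were AGGAAGT and TTGCGCAA. AGGAAGT occurred in 8 of 26 (30.8%, against 8.80% of all genes), among them C1qb and C1qc, and is not marked as such above. TTGCGCAA occurred in 0 of 26, against 0.185% of all genes. A match is a description of the letters in these windows and not a binding site.

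The 5 genes of Fc receptors and ITAM signalling were all higher in iWAT in both labelled genotypes, with the lowest median of the 7 roles, 2.86 in labelled WT and 2.18 in labelled KO on the log2 scale. Without KO replicate 50 the labelled KO median was 2.558, beside 2.553 for the C1q chains, which were then lowest. Tyrobp and Fcer1g, the ITAM adaptors DAP12 and FcR gamma chain, had log2 fold changes of 3.25 and 3.12 in labelled WT. The immunoglobulin G receptor genes Fcgr1 and Fcgr3 had 2.86 and 2.49. Trem2, a lipid receptor that pairs with DAP12, had the smallest called difference of the 34. It was at 0.746, 1.08, 1.78, 1.85 and 1.92 CPM in labelled WT and 1.26, 2.47, 2.50, 2.53 and 3.84 CPM in labelled KO pituitary. In iWAT it was at 0.859, 2.57, 5.41, 6.00 and 12.3 CPM in labelled WT and 1.07, 4.75, 4.79, 6.24 and 10.6 CPM in labelled KO. The tissues overlapped, with 1 iWAT library of each labelled genotype at about 1 CPM. The log2 fold change was 1.88 (SE 0.58, edgeR adjusted p = 0.0111) in labelled WT and 1.18 (SE 0.49, edgeR adjusted p = 0.0473) in labelled KO, and the second call was lost without KO replicate 31, 32 or 35 (edgeR adjusted p = 0.0973, 0.202 and 0.156) and with limma voom (0.365). With limma voom the call in labelled WT was lost as well (0.171).

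The integrin genes Itgam (CD11b), Itgax (CD11c) and their shared beta chain Itgb2 (CD18) were higher in iWAT, with a median log2 fold change of 3.98 in labelled WT and 2.83 in labelled KO. The labelled KO median was 3.51 without replicate 50. Itgb2 was at 3.01, 3.44, 3.54, 3.57 and 4.02 CPM in labelled WT and 2.64, 3.26, 3.40, 5.00 and 16.6 CPM in labelled KO pituitary. The iWAT values were 104, 106, 109.6, 116 and 157 CPM in labelled WT and 47.8, 92.9, 122, 141 and 147 CPM in labelled KO. The tissues did not overlap. Its difference was 33.7-fold in labelled WT, with the smallest p of the 34 members there (edgeR adjusted p = 1.17e-10), and 18.8-fold in labelled KO, where it was 35.9-fold without replicate 50. Itgam lay at 1.57 to 20.8 CPM in the pituitary and 31.5 to 86.0 CPM in iWAT, and its labelled KO log2 fold change of 2.83 was 3.51 without replicate 50. Itgax lay at 2.30 to 8.49 and 8.08 to 44.9 CPM, and for it the tissues overlapped, as pituitary KO replicate 50 at 8.49 CPM lay above iWAT KO replicate 50 at 8.08 CPM.

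Cx3cr1, the receptor for fractalkine that marks microglia and non-classical monocytes, was the member that did not differ by test between the tissues. It was at 10.8, 11.3, 11.8, 14.8 and 16.5 CPM in labelled WT and 6.29, 13.3, 16.7, 17.6 and 24.8 CPM in labelled KO pituitary. Its levels in iWAT were 10.3, 11.8, 13.02, 18.9 and 19.8 CPM in labelled WT and 2.65, 11.2, 11.3, 14.5 and 19.7 CPM in labelled KO. The ranges of the tissues overlapped in both labelled genotypes. On the log2 scale the fold change was 0.18 (SE 0.20, edgeR adjusted p = 0.417) in labelled WT and -0.35 (SE 0.46, edgeR adjusted p = 0.508) in labelled KO, or 0.10 without KO replicate 50. Its ligand gene Cx3cl1 (fractalkine) went the other way from most of the list: it fell by 3.26 on the log2 scale from pituitary to iWAT in labelled WT (108 against 11.3 CPM, edgeR adjusted p = 6.48e-08).

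Ccr2, the receptor that brings classical monocytes out of the marrow, was higher in iWAT by 5.23 (SE 0.31) in labelled WT and 4.35 (SE 0.53) in labelled KO on the log2 scale, or 5.18 without KO replicate 50. Cd14, the lipopolysaccharide co-receptor, was higher by 3.05 and 2.99. The window before the Cx3cr1 start (chr9:120068297-120068546, GRCm38.p6, minus strand, from RefSeq) is shown because this gene was the 1 member without a call. It held no GAGGAA on either strand, which says only that these letters are absent from this window.
Cx3cr1: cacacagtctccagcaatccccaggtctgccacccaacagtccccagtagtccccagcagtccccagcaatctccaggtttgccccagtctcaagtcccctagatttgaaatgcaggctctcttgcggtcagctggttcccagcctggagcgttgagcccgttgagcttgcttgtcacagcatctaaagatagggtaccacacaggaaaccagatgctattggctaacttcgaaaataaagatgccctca

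The role with the largest median tissue difference was that of the resident macrophage scavenger and lectin genes, all 9 of which were higher in iWAT in both labelled genotypes, with a median log2 fold change of 6.46 in labelled WT and 5.50 in labelled KO. The labelled KO median was 6.21 without replicate 50. The mannose receptor gene Mrc1 (CD206) was at 4.44, 7.002, 7.06, 7.59 and 8.22 CPM in labelled WT and 5.60, 7.17, 7.49, 8.85 and 12.8 CPM in labelled KO pituitary. In iWAT it was at 81.8, 134, 135, 142 and 341 CPM in labelled WT and 104, 105, 116, 165 and 199 CPM in labelled KO. The tissues did not overlap, and WT replicate 49 held the highest iWAT value. Its log2 fold change was 4.61 (SE 0.39) in labelled WT and 4.10 (SE 0.28) in labelled KO. The hemoglobin scavenger receptor gene Cd163 had 4.72 and 4.88, the folate receptor gene Folr2 3.77 and 3.58, and F13a1, the coagulation factor XIII A chain, 6.46 and 5.50, the latter 6.21 without KO replicate 50. The labelled WT folds of these genes include WT replicate 49, which held the highest iWAT value of each.

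The remaining 5 genes of this role had few pituitary counts, so their differences are given as ratios of counts per scaled library size with 95% exact intervals, which cover counting error only. Timd4, the phosphatidylserine receptor TIM-4 of resident macrophages, had 1 count over the 5 labelled WT pituitary libraries and 2 over the 5 labelled KO ones. The iWAT values were 34.7, 39.8, 52.3, 55.8 and 96.5 CPM in labelled WT and 2.07, 32.3, 42.1, 44.8 and 47.3 CPM in labelled KO. Every iWAT library lay above every pituitary library, and KO replicate 50 lay far below the other 9 in iWAT. The ratio of iWAT to pituitary was 4428 (794 to 174921) in labelled WT and 1390 (384 to 11480) in labelled KO.

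Marco, a scavenger receptor of marginal zone and lymph node macrophages, had 8 and 4 pituitary counts in labelled WT and KO. Its levels in iWAT were 80.5, 91.5, 104, 105 and 174 CPM in labelled WT and 8.72, 70.2, 89.9, 91.3 and 115 CPM in labelled KO. The tissues did not overlap, and the ratio was 1101 (558 to 2550) in labelled WT and 1541 (601 to 5657) in labelled KO. For the C-type lectin gene Clec10a the ratio was 264 (157 to 483) in labelled WT, for the lectin gene Cd209f it was 255 (109 to 786), and for Pf4, the platelet factor 4 chemokine that some macrophages also make, it was 23.7 (17.2 to 33.6). In labelled WT the ratio of Timd4 was the largest, with an interval that overlapped that of Marco, and in labelled KO that of Marco was larger. The window before the Timd4 start (chr11:46810549-46810798, GRCm38.p6, plus strand, from RefSeq) is shown because of its ratio in labelled WT. It held no GAGGAA on either strand.
Timd4: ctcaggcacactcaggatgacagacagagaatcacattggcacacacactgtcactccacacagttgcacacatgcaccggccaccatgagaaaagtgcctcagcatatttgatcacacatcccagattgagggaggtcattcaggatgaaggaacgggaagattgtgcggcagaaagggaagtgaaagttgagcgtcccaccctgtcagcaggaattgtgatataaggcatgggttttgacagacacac

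**Figure D2:**
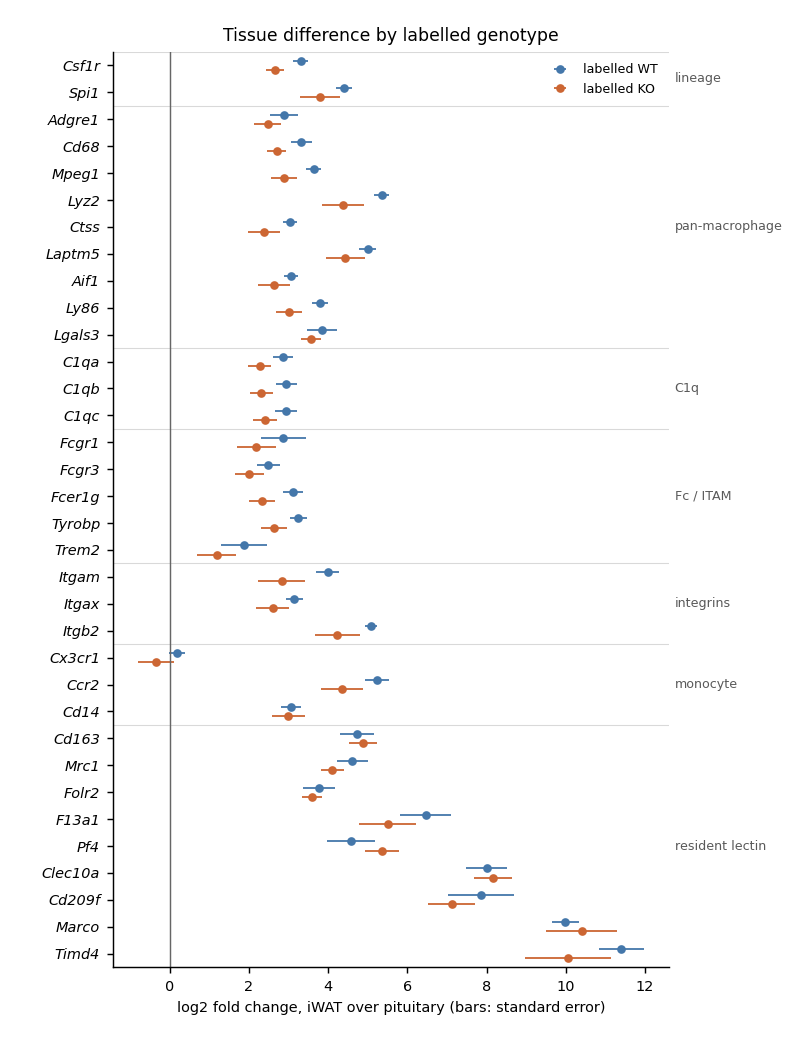
Log2 fold change of iWAT over pituitary for each of the 34 genes, from the edgeR fits of labelled WT (blue) and labelled KO (orange) libraries, with standard errors as bars. Cx3cr1 lies near 0 and the other 33 lie to the right of it; the fitted values of Pf4, Clec10a, Cd209f, Marco and Timd4 rest on few pituitary counts.

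A level relative to Csf1r in the same library describes each member beside the lineage receptor itself. Both genes were taken in CPM per kb, and these ratios are a description without a test. Of the other 33 genes, 9 had ranges over 10 libraries that did not overlap between the tissues, namely Lyz2, Cx3cr1, Ccr2, Mrc1, F13a1, Clec10a, Cd209f, Marco and Timd4. The share of all genes with separate ranges by this measure was not computed, so the 9 are not set against a background. Cx3cr1 was at 31.1% to 70.6% of the Csf1r level in the pituitary and 1.66% to 10.9% in iWAT, and it was the 1 of the 9 with the higher range in the pituitary. Lyz2 was at 146% to 531% in the pituitary and 725% to 1298% in iWAT. Mrc1 was at 15.5% to 26.1% and 33.7% to 87.8%, and Ccr2 at 3.43% to 16.5% and 19.7% to 48.4%. Tyrobp, with medians of 108% and 112%, Cd68, with 47.5% and 49.2%, and Aif1, with 30.4% and 31.0%, had similar medians in both tissues. Their ranges were wide, for Aif1 27.5% to 45.9% in the pituitary and 10.2% to 47.8% in iWAT.

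**Figure D3:**
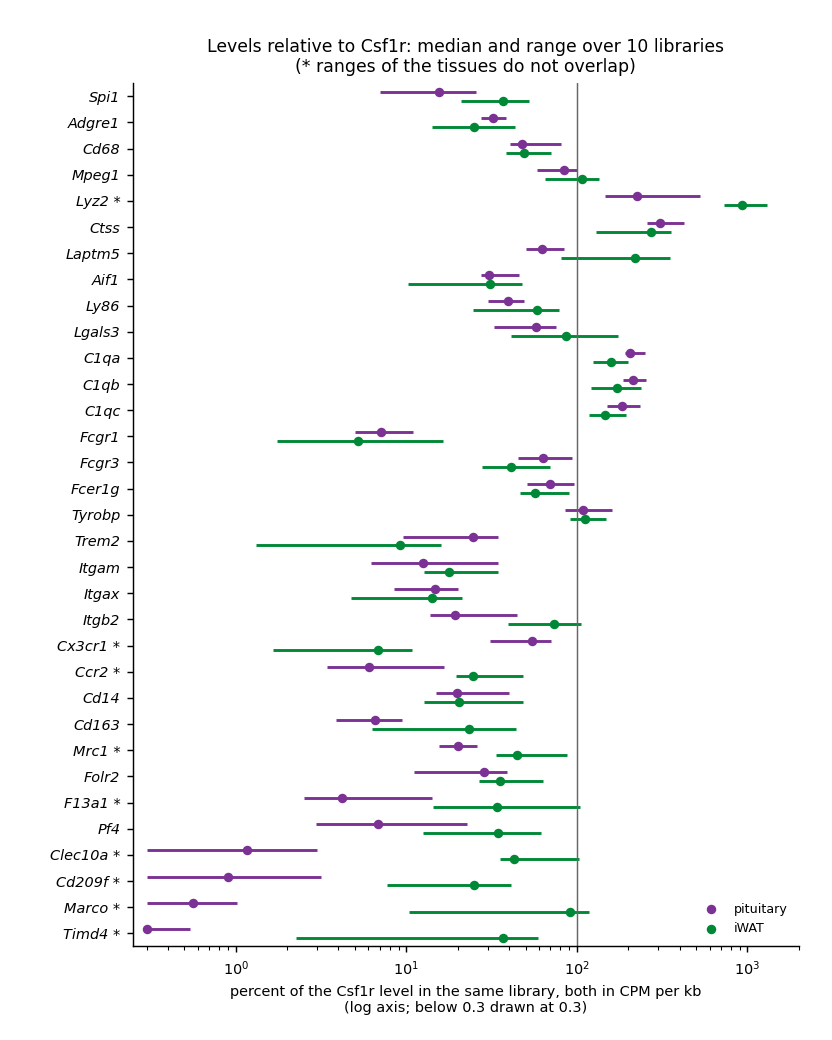
Level of each gene as a percentage of the Csf1r level in the same library, both in CPM per kb of counted exon, on a log axis. Points are medians and lines ranges over the 10 libraries of the pituitary (purple) and iWAT (green), and an asterisk marks the 9 genes whose ranges do not overlap; Cx3cr1 is the 1 of these with the higher range in the pituitary.

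By role, the scavenger and lectin genes made up 4.42% to 6.93% of the members' summed CPM in the pituitary libraries and 12.8% to 26.7% in the iWAT libraries. The C1q chains made up 17.8% to 21.0% in the pituitary and 7.68% to 12.98% in iWAT. The Fc receptor and ITAM genes made up 6.39% to 8.43% and 2.80% to 4.24%. The monocyte and chemokine receptor genes made up 5.98% to 9.49% and 2.18% to 4.04%. The ranges of these 4 roles did not overlap between the tissues, and those of the lineage genes, at 9.580% to 13.4% and 7.26% to 9.573%, met without overlap. The ranges of the pan-macrophage genes, at 39.9% to 46.5% and 38.4% to 58.7%, and of the integrins, at 4.26% to 8.06% and 5.14% to 7.81%, overlapped.

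Other myeloid genes, in lists that hold none of the 34, were also mostly higher in iWAT. In the list around the CSF1 receptor, 7 of 7 tested genes were higher in labelled WT, among them the ligand gene Csf1 (14.0 against 65.2 CPM, log2 fold change 2.22) and Csf2rb, the shared beta chain of the GM-CSF, IL-3 and IL-5 receptors (1.34 against 169 CPM, 6.97). All 12 other myeloid transcription factor genes were higher, with Cebpa at 7.71, which adipocytes also express, and Ikzf1 at 6.57. Of 11 tested genes for other Fc receptors and ITAM partners 11 were higher in labelled WT and 10 in labelled KO, among them the kinase gene Syk (3.26 against 235 CPM on average in labelled WT). All 13 tested genes of the other mannose receptor and lectin list were higher in labelled WT, with the sialoadhesin gene Siglec1 at 7.26 (1.68 against 260 CPM). Complement beyond C1q had 10 of 12 higher, with C3 at 7.63 against 1606 CPM, a gene that adipocytes also make.

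The antigen presentation list had 9 of 9 genes higher in iWAT in both labelled genotypes, and Cd74, the invariant chain gene, averaged 69.6 CPM in labelled WT pituitary and 1370.4 CPM in iWAT. Among chemokine ligands and other receptors 11 of 12 were higher and Cx3cl1 was lower. Of the 10 microglia genes, 7 were higher and 2 lower in labelled WT and 5 higher and 3 lower in labelled KO. The transcription factor gene Sall1 fell by 4.45 and the fructose transporter gene Slc2a5 fell by 2.30 on the log2 scale in labelled WT. P2ry12 (log2 fold change 0.98) and Tmem119 (1.15) were higher in iWAT in labelled WT. Lymphocyte markers moved with the tissue: 7 of 7 B cell genes and 9 of 9 T and NK cell genes tested were higher in labelled WT iWAT, with medians of 7.88 and 7.09 on the log2 scale. Of 6 neutrophil genes tested in labelled WT 2 were higher and 0 lower, with a median of 0.04, and of 5 in labelled KO 1 was higher, with a median of -0.22. The lymphocyte genes' part in the members' difference was not tested.

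The second comparison asked whether the members differed between the labelled genotypes within the pituitary. Of the 34 genes 29 were tested, since Pf4, Clec10a, Cd209f, Marco and Timd4 had too few counts, and 0 passed (edgeR adjusted p under 0.05), where 0.549% of all genes did (0.415% higher and 0.134% lower in labelled KO). At an unadjusted p under 0.05 edgeR gave 1 of the 29 (3.45%, against 10.9% of all genes), DESeq2 2 (against 10.4%) and limma voom 2 (against 13.1%). The edgeR count was 5 (17.2%) without KO replicate 31, 10 (34.5%) without KO replicate 35 and 0 without WT replicate 56. Of all genes 9.06% to 11.5% had such a p in those fits. The log2 fold change was positive in labelled KO for 27 and negative for 2, Cd163 and Folr2, with a median of 0.38 against 0.0036 over all genes tested. That median was 0.05 without KO replicate 50, with 20 values positive and 9 negative, 0.05 in the libraries of 21 weeks alone, and 0.22 with a red blood cell score as a covariate. With age as a covariate the median was 0.51, and 13 of the 29 (44.8%) had an unadjusted p under 0.05, as did 9.46% of all genes. Replicate 50 was the only labelled KO library not of 21 weeks, so within labelled KO age and that library cannot be told apart.

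Trem2 had the smallest p of the 29. As given above, 4 of the 5 labelled KO libraries lay above all 5 labelled WT libraries and KO replicate 35 lay among them. Its log2 fold change was 0.76 (SE 0.30, edgeR adjusted p = 0.339), and 0.57 without KO replicate 50. Itgam was at 2.88, 2.98, 3.62, 3.66 and 3.77 CPM in labelled WT and 1.57, 4.29, 4.58, 5.19 and 20.8 CPM in labelled KO. The groups overlapped through KO replicate 35 alone. For Itgam the log2 fold change was 1.07 (SE 0.61, edgeR adjusted p = 0.581), the largest of the 29, and 0.20 without replicate 50.

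F13a1 was at 0.685, 0.899, 1.07, 1.097 and 1.62 CPM in labelled WT and 0.822, 0.881, 1.03, 1.23 and 7.16 CPM in labelled KO pituitary. Apart from replicate 50 the labelled KO values lay within the labelled WT range. Its log2 fold change of 0.98 (SE 0.67, edgeR adjusted p = 0.655) was -0.12 without that library. Lyz2 moved from 0.89 to 0.12, Itgb2 from 0.77 to 0.01 and Ccr2 from 0.71 to -0.19. Cd163 and Folr2 did not rest on it, with -0.32 and -0.36 with all libraries and -0.46 and -0.33 without it, and neither passed the test.

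Pituitary KO replicate 50 lay above every other pituitary library for all measured members of 5 roles, for 8 of 9 pan-macrophage genes and for 2 of the 4 scavenger and lectin genes with a ratio. Against the median of the other 9 libraries its level was 6.94-fold for F13a1, 5.69-fold for Itgam, 5.44-fold for Ccr2, 5.04-fold for Lyz2 and 4.83-fold for Itgb2. The C1q chains were at 2.34-fold to 2.49-fold and Csf1r at 1.94-fold. Lgals3, Cd163 and Folr2 were within the range of the other libraries, at 1.07-fold, 1.19-fold and 0.804-fold.

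In the same library all 9 neutrophil genes were above the other 9 libraries. S100a8 was at 106 CPM against 0.137 to 4.86, S100a9 at 147 against 0.126 to 6.96, and the myeloperoxidase gene Mpo, which granulocyte precursors make, at 14.1 against 0 to 1.02 CPM. The neutrophil sum ranged from 1.44 to 34.1 CPM in labelled WT and from 1.95 to 15.9 CPM in the other labelled KO libraries. Mpo, Elane and Cxcr2 had a count of 0 in 4, 6 and 3 of the 10 pituitary libraries. All 5 red blood cell genes were also above the other libraries, by a median of 1.56-fold. The 9 antigen presentation genes summed to 502 CPM against 134 to 235 CPM, with 7 of 9 above all others. The microglia genes had a median of 1.08-fold, with 3 of 10 above all others. The part of the neutrophil and antigen presentation genes in the members' values was not tested.

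**Figure D4:**
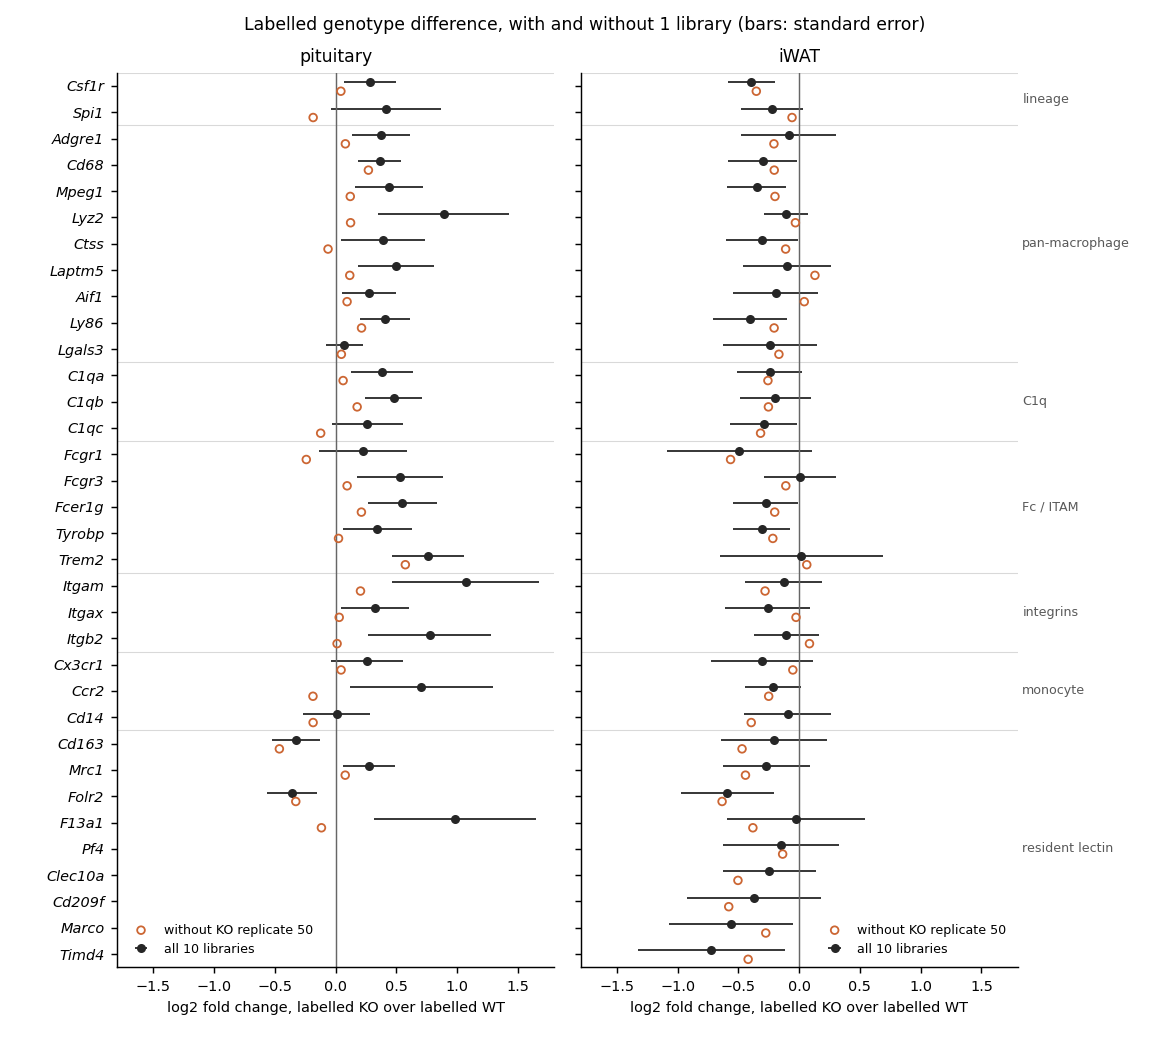
Log2 fold change of labelled KO over labelled WT in the pituitary (left) and iWAT (right) for each gene, from edgeR, with all 10 libraries (black, bars are standard errors) and without KO replicate 50 (open circles). In the pituitary the black points lie mostly right of 0 and the open circles near it, with medians of 0.38 and 0.05; in iWAT most points of both kinds lie left of 0.

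In iWAT all 34 members were tested between the labelled genotypes and 0 passed, as 0% of all genes did (edgeR adjusted p under 0.05). With edgeR, DESeq2 and limma voom, 0 of the 34 had an unadjusted p under 0.05, where 0.553%, 0.789% and 1.53% of all genes did. Leaving out WT replicate 33, WT replicate 34 or KO replicate 32 gave an edgeR count of 1 (2.94%). Of all genes 1.23%, 0.678% and 0.498% had such a p in those fits. The log2 fold change was negative in labelled KO for 32 and positive for 2, Fcgr3 and Trem2, with a median of -0.24 against -0.0002 over all genes tested. The median was -0.21 without KO replicate 50, -0.12 without WT replicate 49 and 0.08 in the libraries of 21 weeks alone, which leave 4 labelled KO and 2 labelled WT. With a score of the B, T and NK cell genes as a covariate it was -0.27. The sign changed for 12 of the 34 without WT replicate 49, for 23 in the libraries of 21 weeks and for 4 without KO replicate 50.

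Csf1r had the smallest p of the members in iWAT. Its 5 labelled KO values, given above, lay between 165 and 224 CPM and its labelled WT values between 177 and 354 CPM, so the groups overlapped. The log2 fold change was -0.39 (SE 0.19, unadjusted p = 0.068 and adjusted p = 0.99995 with edgeR). Timd4 had the largest difference, -0.72 (SE 0.60), which was -0.42 without KO replicate 50. Folr2 had -0.59 (SE 0.38), and -0.64 without KO replicate 50. Csf1r and Folr2 were both highest in WT replicate 49, at 354 and 62.3 CPM. Their differences without WT replicate 49 are not given here. The spread between the libraries was larger in iWAT: the biological coefficient of variation over all genes was 0.307 there and 0.101 in the pituitary, and no difference of this size passed at that spread.

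The iWAT libraries also differed from each other within the labelled genotypes. KO replicate 50 was the lowest of the 10 for 13 genes: Csf1r, Spi1, Mpeg1, Lyz2, Ctss, Laptm5, Aif1, Ly86, Itgax, Itgb2, Cx3cr1, Marco and Timd4. WT replicate 48 was the highest of the 10 for 12 of these 13, all but Csf1r, and for no other member. Timd4 was at 2.07 CPM in KO replicate 50, 96.5 CPM in WT replicate 48 and 32.3 to 55.8 CPM in the other 8. Marco was at 8.72, 174 and 70.2 to 115 CPM in the same order. Laptm5 was at 82.6, 437 and 220 to 410 CPM, and Cx3cr1 at 2.65, 19.8 and 10.3 to 19.7 CPM.

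No other member of the 34 was below all 9 other libraries in KO replicate 50. The C1q chains were at 1.014-fold to 1.08-fold of the median of the other 9 libraries. F13a1 was at 2.90-fold, Clec10a at 1.93-fold, Cd163 at 1.92-fold and Mrc1 at 1.48-fold, within the range of the other libraries, and Cd14 was above all 9 at 1.84-fold. The same library was below all other 9 for 7 of 7 B cell genes (median 0.0116-fold), 9 of 9 T and NK cell genes (0.0433-fold) and 9 of 9 antigen presentation genes (0.296-fold). No B cell or T and NK cell gene was at a count of 0 in it. Its red blood cell genes were above all others for 5 of 5 (4.28-fold) and its neutrophil genes for 7 of 9. WT replicate 48 had the highest T and NK cell sum, 608 CPM, and was above all others for 9 of 9 antigen presentation genes.

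WT replicate 49 was the highest iWAT library for 18 members, of which 1, Csf1r, was among the 13 lowest in KO replicate 50. The 18 included all 3 C1q chains and, by role, 7 of the 9 scavenger and lectin genes. F13a1 was at 33.2, 42.2, 75.3, 82.6 and 244 CPM in labelled WT and 48.5, 57.3, 60.1, 126 and 174 CPM in labelled KO iWAT. Replicate 49 supplied the 244 CPM, 4.06-fold the median of the other 9 libraries. Pf4 was at 3.31-fold, Cd209f at 2.93-fold, Clec10a and Folr2 at 2.84-fold, Mrc1 at 2.55-fold and Cd163 at 2.49-fold, and the C1q chains were at 1.91-fold to 2.21-fold. Marco and Timd4, at 1.15-fold and 1.33-fold, and Itgb2, Cx3cr1 and Laptm5, at 0.897-fold, 0.904-fold and 0.735-fold, were within the range of the others.

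Other cell markers also stood apart in WT replicate 49. Its mast cell genes had a median of 2.85-fold, with 5 of 8 above all others, and its preadipocyte and fibroblast genes 2.17-fold, with 4 of 7 above all others. Its B cell genes had a median of 0.330-fold. Over the groups, the B cell sum ranged from 226 to 1025 CPM in labelled WT and from 11.4 to 1068 CPM in labelled KO iWAT, and the T and NK cell sum from 193 to 608 and from 18.6 to 579 CPM. The part of these cells in the members' spread was not tested.

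**Figure D5:**
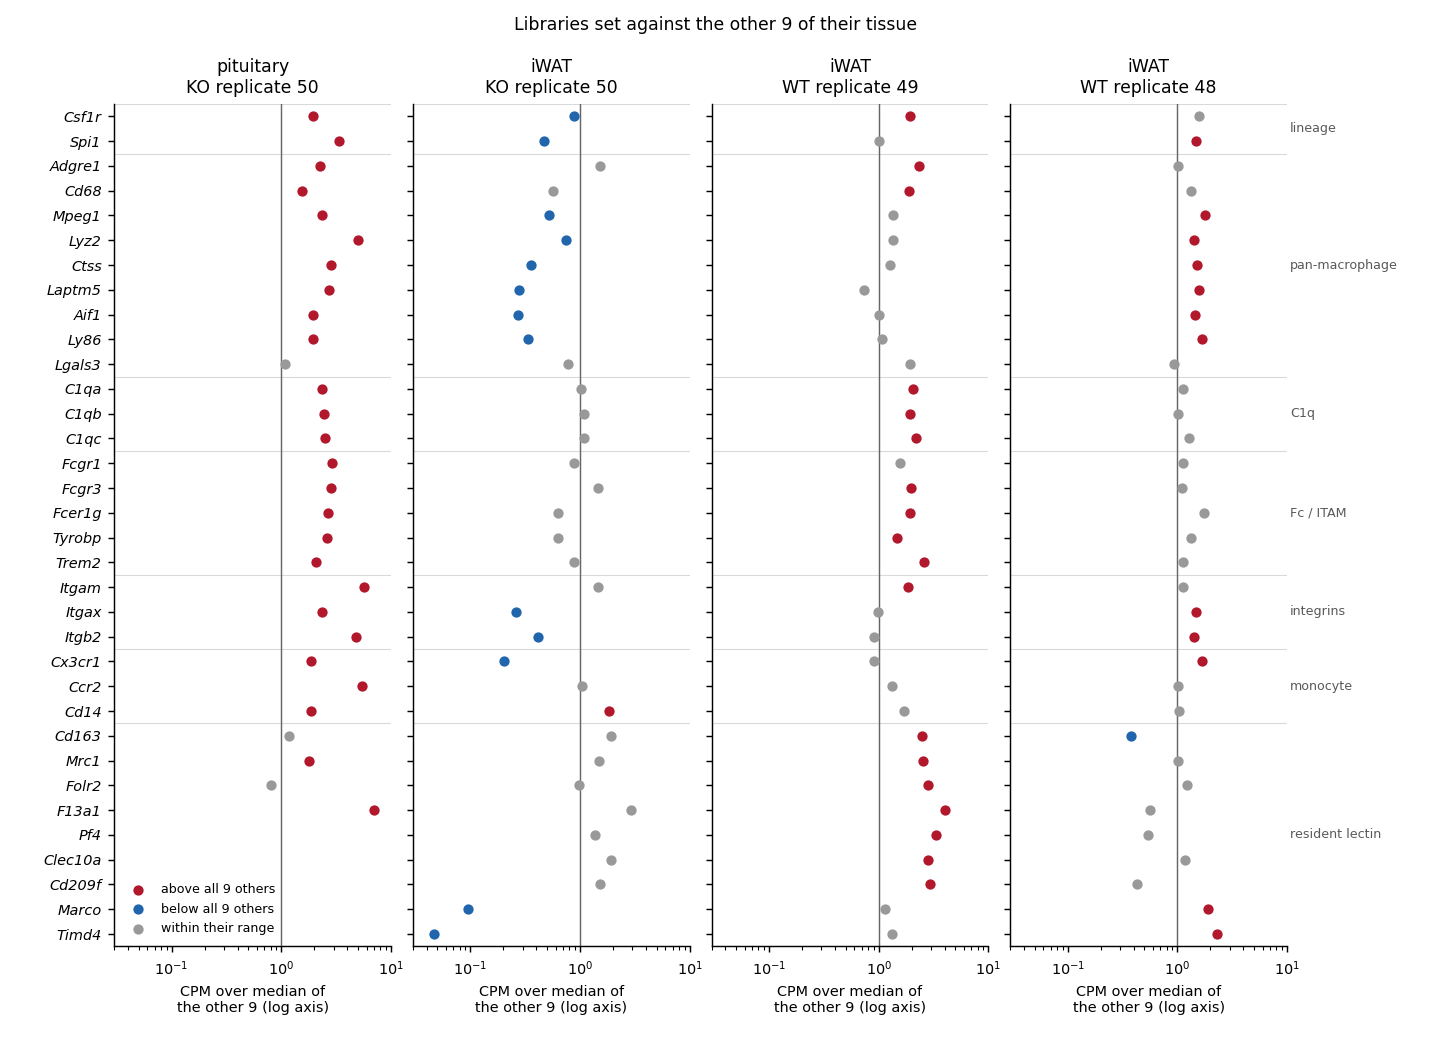
Level of each gene in 4 libraries, divided by the median of the other 9 libraries of the tissue, on a log axis; genes whose median of the others is below 1 CPM are left out. Red points lie above all 9 others, blue below all 9 and grey within their range: pituitary KO replicate 50 has 26 red points, iWAT KO replicate 50 has 13 blue points, iWAT WT replicate 49 has 18 red points and iWAT WT replicate 48 has 12.

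The spread of the members within a group was widest in labelled KO pituitary. The median coefficient of variation over the members with a mean of at least 1 CPM was 18.3% in labelled WT and 47.6% in labelled KO pituitary, where it was 22.2% without replicate 50. In iWAT it was 39.2% in labelled WT and 35.9% in labelled KO, or 26.6% without replicate 50. The most even member was Adgre1 in labelled WT pituitary, at 4.80%, and the most variable F13a1 in labelled KO pituitary, at 124%. F13a1 reached a mean of 1 CPM there only with replicate 50, the other 4 libraries averaging 0.993 CPM. Over the 28 members that reached it without that library, the median was 46.5% with it and 22.2% without it. In labelled WT iWAT the ends were Itgb2 at 18.4% and F13a1 at 89.7%.

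The last comparison tested whether the labelled genotype difference was different in the 2 tissues, as a contrast of all 4 groups. It shares its libraries with the comparisons above. Of the 34 members 0 passed, as 0% of all genes did (edgeR adjusted p under 0.05), and 2 (5.88%, against 2.41% of all genes) had an unadjusted p under 0.05 with edgeR, 3 with DESeq2 (against 2.97%) and 0 with limma voom (against 3.03%). The edgeR count was 5 (14.7%) without KO replicate 31, WT replicate 34 or KO replicate 35, against 3.11%, 2.08% and 2.51% of all genes. It was 0 without KO replicate 50 or 66 or WT replicate 48 or 49, against 3.04%, 2.59%, 1.92% and 2.24%. The contrast, iWAT minus pituitary, was negative for 30 and positive for 4, with a median of -0.63 on the log2 scale against 0.03 over all genes tested. Csf1r had -0.65 (SE 0.29, unadjusted p = 0.039 and adjusted p = 0.99997 with edgeR), and Mpeg1 -0.77 (SE 0.37, unadjusted p = 0.0495). Without KO replicate 50, which had the highest Csf1r and Mpeg1 values of the pituitary and the lowest of iWAT, the members' median was -0.23, and without WT replicate 49 it was -0.42.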

How the data were processed

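Per the labels' protocols, polyA RNA of 20 libraries was sequenced as single-end Illumina reads. The deposited values are raw counts of reads over each gene's exons, whole and not normalized, which per the file headers the authors obtained with featureCounts on an mm10 annotation. STAR 2.4.0 and featureCounts 1.4.4 are named in the submitters' processing notes. Whether strand was used in counting is not given in these sources.

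The members and all lists were chosen with earlier results of these data known. Each comparison was fitted on all genes (edgeR 4.0.16 under R 4.3.3, with filterByExpr, TMM and the robust quasi-likelihood test, Benjamini-Hochberg adjusted p under 0.05): labelled KO against labelled WT within a tissue, iWAT against pituitary within a labelled genotype, and their interaction over 20 libraries. No covariate was used. A standard error is the log2 fold change over the square root of F. CPM use TMM factors over all 20 libraries, and list scores a prior count of 2. Every pair of libraries in a group differed by more than sampling noise (smallest reduced chi-square 4.70).

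All 34 members were named. From the other lists the rule takes genes past the threshold in a genotype comparison and, in the tissue comparisons, the 2 with the highest CPM and the 2 with the largest difference past the threshold in both labelled genotypes; not all are given. P2ry12, Tmem119, Slc2a5 and the neutrophil genes of pituitary KO replicate 50 were chosen after their values were seen. Of the genes in those lists, 4 of 231 had no match. Alternatives were RLE scaling, omission of the 20 most abundant genes, other filters, DESeq2 1.42.0, limma 3.58.1 voom with quality weights, age, libraries of 21 weeks, 1 fit over all 20 libraries, cell type scores, a replicate block and leaving out each replicate. The fits were tested on simulated counts.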

Additional observations from a re-analysis of the deposited data

Results flagged for a closer look

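In groups of 5 libraries, 126 combinations of a member and a group with a mean of at least 1 CPM were examined. A library far from the other 4 was found 24 times. A rate of 1 in 20 would give about 6.3 for independent combinations. Members share the same libraries, so the combinations are not independent and 6.3 is no measure of chance here. Pituitary KO replicate 50 accounted for 14, all high: Lyz2 at 72.6 CPM, Ctss at 75.0, Mpeg1 at 55.0, Ly86 at 5.09, C1qa at 34.9, C1qb at 34.8, C1qc at 31.5, Fcgr1 at 3.54, Fcgr3 at 16.5, Itgam at 20.8, Itgax at 8.49, Itgb2 at 16.6, Ccr2 at 7.68 and F13a1 at 7.16 CPM. F13a1 was examined in that group only because this library raised its mean to 1 CPM, the other 4 averaging 0.993 CPM. Its neutrophil, red blood cell and antigen presentation genes were high as well, and their part in these values was not tested.

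In labelled WT iWAT, replicate 49 stood above the other 4 libraries for 5 members, with C1qb at 188.9 CPM, Mrc1 at 341.0, Folr2 at 62.3, F13a1 at 243.9 and Clec10a at 97.3 CPM. Replicate 48 stood above for 3, with Itgax at 44.9 CPM, Itgb2 at 156.8 and Marco at 174.3 CPM. In labelled WT pituitary, Folr2 was high in replicate 48 at 3.03 CPM and Mpeg1 low in replicate 56 at 17.3 CPM.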

How the results depend on the processing

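The members' values were recomputed 2722 times over all comparisons and alternatives, and 2713 kept their direction and side of the threshold or were uncalled in both; the other 9 were losses of the Trem2 tissue call, 1 in labelled WT (limma voom adjusted p = 0.171) and 8 in labelled KO (adjusted p = 0.0509 to 0.365). Among uncalled members the sign changed in 20 of 580 recomputed values in the pituitary, 76 of 680 in iWAT, 17 of 578 in the interaction and 1 of 13 for Cx3cr1 in the labelled KO tissue comparison. The members' median tissue difference in labelled WT was 3.36 with limma voom. The count over all pituitary genes was 90 and became 288 with DESeq2, 44 with age as a covariate, 5 in libraries of 21 weeks, 1 in the fit over all 20 libraries and 192 at an adjusted p threshold of 0.1, and it ranged from 50 to 112 with 1 replicate left out. In the interaction DESeq2 called 1 gene, not a member, and the members' median ranged from -0.77 to -0.23 with 1 replicate left out. Without a filter the median of all genes in the labelled KO tissue comparison was 0.17. The replicate numbers gave correlations of -0.060 to 0.095 between same-numbered libraries, and 3 of 10 libraries correlated best with their own number. With the replicate number as a block, 13197 genes were called between the tissues in labelled WT (33 members) and 12270 in labelled KO (32 members, Trem2 lost with adjusted p = 0.127), and 0 in the interaction. Depth limits the 5 members with few pituitary counts.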
